A study of Mus musculus with 4 samples.

Results

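The interferon-stimulated antiviral genes are transcripts that cells make after type I interferon signalling. Their RNA was examined in hematopoietic stem cells sorted from mouse bone marrow, in control mice and in mice made to delete Ddx21, which encodes an RNA helicase of the nucleolus. The genes were taken from a list of 34 symbols with roles in that response, of which 33 had a row among the 12390 genes of the deposited table and 32 passed the filter on low values, a mean of at least 1 RPKM (reads scaled to transcript length and to library size). Mx1 had no row, and Mx2 was below the filter. The 2 control libraries came from mice with floxed Ddx21 alleles, written Ddx211fl/fl in the design text and labelled WT. The 2 knockout libraries came from mice that carry the same floxed alleles and CAG-CreERT2, a broadly expressed Cre recombinase that tamoxifen activates, and are labelled KO. Both groups therefore share the floxed alleles, while the Cre transgene is carried by the knockout mice alone. The sources used here do not give age, sex or strain of the animals, tamoxifen dosing or the time after it, and do not state whether control mice received tamoxifen or whether each library is 1 animal. The p-values therefore rest on the spread between these libraries, which may be technical. In the main fit that spread is a trend over genes of similar level and not each gene's own. About 5000 cells per library were sorted from the Lin-, Sca-1+, c-Kit+, CD48-, CD150+ gate.

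Type I interferons bind the receptor chains encoded by Ifnar1 and Ifnar2. The kinases JAK1 and TYK2 then activate transcription factors, among them STAT2, which joins IRF9 in the complex ISGF3. ISGF3 binds the interferon-stimulated response element in promoters and switches on genes whose products detect viral RNA, degrade it, block its translation or tag proteins with ISG15. In hematopoietic stem cells a basal level of this program is known without infection, and strong interferon exposure is known to drive these cells out of quiescence.

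The response element is a property of the DNA that the RNA values do not enter, so its sequence is shown for Bst2, the called member with a promoter entry and a match, and for 3 members chosen for comparison after their values were seen. The core searched was GAAANNGAAA on either strand, in RefSeq promoters (GRCm38.p6) that run from 250 bases before to 50 after each annotated start. Capitals mark the matches, each printed 5′ to 3′ on the strand of its gene, and the matches of the first 3 genes share GAAA blocks. The stretches lie upstream of the starts, at chr8:71537572-71537617 (minus strand), chr4:156200860-156200911 (minus strand), chr5:120907526-120907560 (minus strand) and chr19:34640770-34640828 (plus strand).
Bst2: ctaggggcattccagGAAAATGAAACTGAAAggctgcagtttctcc
Isg15: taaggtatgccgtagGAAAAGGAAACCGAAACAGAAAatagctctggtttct
Oas1a: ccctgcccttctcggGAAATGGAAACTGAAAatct
Ifit1: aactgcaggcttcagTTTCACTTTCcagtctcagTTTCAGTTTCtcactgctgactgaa

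Bst2 and Oas1a held 2 overlapping matches, Isg15 held 3, and Ifit1 held 2 separate matches on the opposite strand, which read as TTTC blocks on the gene's own strand. Most other members with a match held fewer upstream. Ifit3 held 2 there, and Rsad2, Stat2, Oas3 and Trim30a held 1 each. Ddx58, Ifih1 and Eif2ak2 had matches only after the start. Of the 24 members with a promoter entry, 12 (50%) held at least 1 match. The share was 3.99% of 27025 genes with an entry and 3.95% of the 8126 tested genes with an entry. The members were listed as interferon response genes, so this difference describes the choice of list and is no result of these libraries. The 12 members with a match had a median log2 fold change of 0.59 between knockout and control, and the 12 without one had 0.53. A match is a description of these letters and not a binding site, and the values of the 2 sets ranged over much the same folds, from 0.089 to 0.68 with a match and from 0.20 to 0.93 without one.

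Recovered reads numbered between 43218009 and 62871440 per library. Most genes of the table were shifted upward in the knockout libraries: over the 11742 tested genes the median fold was 0.31 on the log2 scale as deposited and 0.00 after the libraries were rescaled by a trimmed mean, so each value below is read against that shift. The shift was larger in knockout replicate 2 (median of all genes 0.50 above the control mean) than in knockout replicate 1 (0.12). Ddx21 stood at 10.95 and 12.1 RPKM in control and 6.20 and 6.60 RPKM in knockout, lower in both knockout libraries than in both controls. Its difference on the log2 scale was -0.76 with an SE of 0.30 (adjusted p = 0.158) and did not pass the threshold in limma, while the adjusted p was 0.0379 in voom on rescaled reads. Of the sort's markers, Ly6a (Sca-1), Kit and Slamf1 (CD150) were present, as were Procr, Hlf and Mecom, other genes typical of stem cells. The summed level of these 6 was 149 and 187 RPKM in control and 217 and 266 RPKM in knockout. Of them 1 rose, Procr, and their median log2 fold change was 0.62 as deposited and 0.32 rescaled, beside 0.56 and 0.25 for the interferon-stimulated members. Markers of other cells were present as well. The 8 neutrophil markers summed to 25482 and 25677 RPKM in control and 16124 and 9895 RPKM in knockout, and the 8 osteoblast and stroma markers to 447 and 260.1 RPKM in control and 6325 and 1587 RPKM in knockout. All 8 of the first list fell and all 8 of the second rose as deposited. Limma on rescaled values called no gene, but the median log2 fold changes remained large, -1.001 as deposited and -1.37 rescaled for the neutrophil markers and 3.09 and 2.76 for the osteoblast and stroma markers. Markers that the gate excludes summed to 62.4 and 47.6 RPKM in control and 36.4 and 53.4 RPKM in knockout (4 of 5 listed, of which Ly6g fell). B cell markers summed to 22.8 and 18.6 RPKM in control and 28.0 and 40.3 RPKM in knockout (4 of 6, none called). T and NK cell markers summed to 1229 and 1325 RPKM in control and 884 and 751 RPKM in knockout (2 of 6). Nkg7 held nearly all of this sum, at 1228 and 1324 RPKM in control and 884 and 750 RPKM in knockout, and fell. Klrb1c was under the filter, and the other listed markers had no row in the deposited table. The part of these cells in the interferon-stimulated values was not tested. In bulk RNA fewer cells of a type and less RNA per cell cannot be told apart.

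Across the 32 tested members 2 rose in the knockout libraries, Bst2 and Ifi27, none fell and 30 were not called (limma, adjusted p under 0.05 over all tested genes). The share called higher was 6.25% of the members, beside 3.33% of all tested genes, and the share of all genes called lower was 0.86%. At an unadjusted p under 0.05, 15 members were higher, 46.9% of them beside 13.8% of all genes. The members' median log2 fold change was 0.56, against 0.31 for all tested genes, and 27 of 32 lay above that median of all genes. After rescaling the members' median was 0.25, against 0.00, and 27 of 32 were above 0, beside 50.5% of all genes. Both calls were lost on the rescaled scale. Limma on rescaled values called 0 members and 0% of all genes. Voom on rescaled reads called 0 members and 0.307% of all genes higher. The rescaled limma fit differs in variance as well as in scaling, with members' SEs from 0.11 to 0.28 beside 0.17 to 0.34. Both calls were also lost with the replicate number as a block and without any 1 library other than knockout replicate 1. At an unadjusted p under 0.05 on the rescaled scale, 3 members were higher (Ifi44, Usp18 and Parp14), which is 9.38% of the members beside 8.01% of all genes, and 1, Ifi27l2a, was lower, beside 7.57% of all genes.

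**Figure D1:**
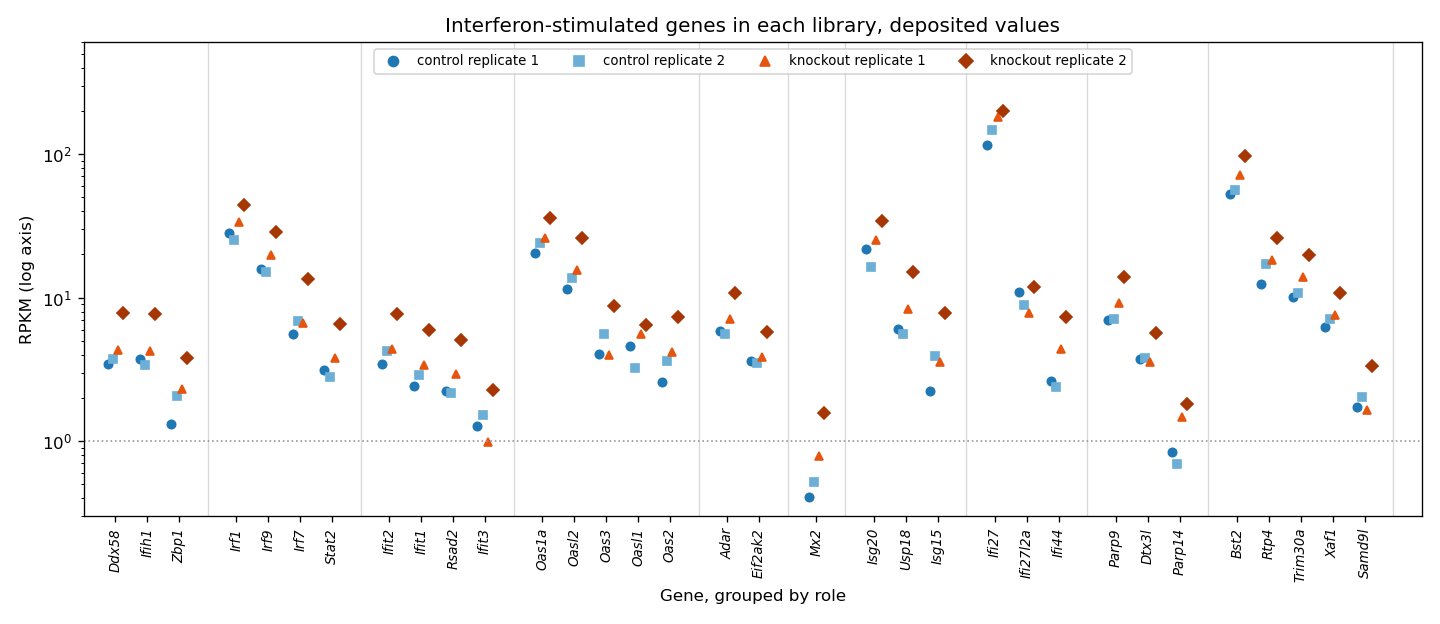
RPKM on a log axis of the 33 members in the table, grouped by role, with 1 point per library and a dotted line at 1 RPKM. Knockout replicate 2 holds the highest value of each of the 32 tested members, and Ifi27 and Bst2 are the most abundant.

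Most members were present at low levels in all 4 libraries. Of the 32 tested members, 16 had a mean under 5 RPKM, 11 between 5 and 20 RPKM and 5 of at least 20 RPKM. The lowest tested mean was 1.21 RPKM and the highest 161 RPKM. The recovered reads behind a single value of a member in the table ran from 57 to 9095. Both called members lay in the highest class, where the SE of the fit was smallest. In that class 4.37% of all genes were called higher, beside 2.85% of genes under 5 RPKM.

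The sensors of foreign RNA come first in the pathway. Ddx58 encodes RIG-I, which recognises double-stranded RNA ends, and stood at 3.42 and 3.73 RPKM in control and 4.32 and 7.80 RPKM in knockout. Its log2 fold change was 0.58 with an SE of 0.34 (adjusted p = 0.357). Ifih1, which encodes the long double-stranded RNA sensor MDA5, stood at 3.76 and 3.41 RPKM in control and 4.26 and 7.64 RPKM in knockout and had a log2 fold change of 0.56 with an SE of 0.34 (adjusted p = 0.372). The values of both sensors were close to each other in each library, with knockout replicate 1 slightly above the controls and knockout replicate 2 well above them. Zbp1, a sensor of Z-form nucleic acid that can trigger cell death, stood at 1.32 and 2.08 RPKM in control and 2.29 and 3.78 RPKM in knockout, and its log2 fold change was 0.57 with an SE of 0.32 (adjusted p = 0.345). None of the 3 sensors was called. Their knockout libraries lay above both controls in the deposited values, as did those of 55.5% of all tested genes. After rescaling that share of all genes was 27.4%, and each such pattern below is read beside these shares. On the rescaled scale the sensors' log2 fold changes were 0.27, 0.25 and 0.31, and the groups of Zbp1 overlapped.

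Among the signalling members, Irf1, a transcription factor induced most strongly by interferon gamma, was the most abundant. It stood at 28.2 and 25.2 RPKM in control and 33.9 and 44.0 RPKM in knockout and had a log2 fold change of 0.52 with an SE of 0.21 (adjusted p = 0.184). Irf9, the DNA-binding subunit of ISGF3, stood at 15.8 and 15.03 RPKM in control and 19.9 and 28.6 RPKM in knockout and had a log2 fold change of 0.60 with an SE of 0.24 (adjusted p = 0.165). Stat2, its partner in ISGF3, was lower in abundance at 3.13 and 2.81 RPKM in control and 3.81 and 6.51 RPKM in knockout, and its log2 fold change was 0.60 with an SE of 0.34 (adjusted p = 0.350). In all 3 genes both knockout libraries lay above both control libraries, as in 55.5% of all genes. They did so after rescaling too, as in 27.4% of all genes. Irf7, the factor that amplifies interferon production, stood at 5.58 and 6.92 RPKM in control and 6.66 and 13.5 RPKM in knockout. Its groups overlapped, since knockout replicate 1 lay between the control libraries, and its log2 fold change was 0.55 with an SE of 0.31 (adjusted p = 0.350). Of these 4 genes none was called. Irf9 overlaps Rnf31 on the same strand and Irf1 overlaps Gm17334, and reads of overlapping genes cannot be told apart without the counting rule.

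The Ifit genes encode proteins that bind viral RNA caps and ends, and Ifit1, Ifit2 and Ifit3 lie close together on chromosome 19 (mm10). Ifit2 stood at 3.46 and 4.25 RPKM in control and 4.397 and 7.73 RPKM in knockout and had a log2 fold change of 0.50 with an SE of 0.33 (adjusted p = 0.404). Ifit1 stood at 2.43 and 2.91 RPKM in control and 3.38 and 5.95 RPKM in knockout and had a log2 fold change of 0.59 with an SE of 0.34 (adjusted p = 0.353). Both had knockout libraries above the controls in the deposited values, although the groups of Ifit2 overlapped after rescaling. Ifit3 went another way at 1.28 and 1.53 RPKM in control and 0.987 and 2.29 RPKM in knockout, where knockout replicate 1 was the lowest of the 4 libraries. Its log2 fold change was 0.089 with an SE of 0.29 (adjusted p = 0.834) and turned to -0.15 after rescaling. Ifit3 has a near-identical neighbour, Ifit3b, so its value is uncertain. Rsad2, which encodes viperin, an enzyme that makes a chain-terminating nucleotide, stood at 2.23 and 2.17 RPKM in control and 2.94 and 5.09 RPKM in knockout and had a log2 fold change of 0.61 with an SE of 0.33 (adjusted p = 0.331). None of these 4 genes was called.

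The 2′-5′ oligoadenylate synthetases sense double-stranded RNA and activate RNase L, and 5 family members were tested. Oas1a was the most abundant at 20.4 and 23.9 RPKM in control and 26.2 and 35.7 RPKM in knockout, and its log2 fold change was 0.45 with an SE of 0.22 (adjusted p = 0.290). Oasl2 stood at 11.5 and 13.6 RPKM in control and 15.5 and 25.8 RPKM in knockout and had a log2 fold change of 0.64 with an SE of 0.25 (adjusted p = 0.158). Both had non-overlapping groups in the deposited values, and after rescaling Oas1a overlapped while Oasl2 did not. Oas2 stood at 2.58 and 3.65 RPKM in control and 4.17 and 7.32 RPKM in knockout and had the highest fold of the family, 0.68 with an SE of 0.34 (adjusted p = 0.295). Oas3 had the lowest, 0.27 with an SE of 0.33 (adjusted p = 0.584), with 4.03 and 5.61 RPKM in control and 3.99 and 8.73 RPKM in knockout. Knockout replicate 1 was the lowest library for Oas3 and knockout replicate 2 the highest, so its groups overlapped, and its log2 fold change was -0.045 after rescaling. Oasl1, an OAS-like protein without synthetase activity, had 0.52 (adjusted p = 0.392). None of the 5 was called. Oas1a is one of several near-copies in a cluster on chromosome 5, so its reads could be split with its neighbours.

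Adar, which edits adenosine to inosine in double-stranded RNA and so limits its sensing, stood at 5.86 and 5.55 RPKM in control and 7.16 and 10.8 RPKM in knockout. Its log2 fold change was 0.55 with an SE of 0.31 (adjusted p = 0.356), with no overlap of the groups on either scale. Eif2ak2, which encodes the kinase PKR that stops translation on double-stranded RNA, stood at 3.60 and 3.52 RPKM in control and 3.87 and 5.78 RPKM in knockout. Its log2 fold change was 0.33 with an SE of 0.34 (adjusted p = 0.529), near the median of all genes, and 0.034 after rescaling. Mx2, an antiviral GTPase below the filter, stood at 0.411 and 0.518 RPKM in control and 0.788 and 1.58 RPKM in knockout. All 4 of its values rested on at least 57 recovered reads, and both knockout libraries lay above both control libraries.

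ISG15 is a ubiquitin-like protein that is attached to other proteins, and USP18 removes it and also restrains the interferon receptor. Usp18 (chromosome 6, 121245906 to 121270917, plus strand, mm10) stood at 6.10 and 5.56 RPKM in control and 8.33 and 14.999 RPKM in knockout, a mean of 5.83 ± 0.380 RPKM in control and 11.7 ± 4.72 RPKM in knockout (SD, n = 2 per group). Its log2 fold change was 0.84 with an SE of 0.30 (adjusted p = 0.103), and 0.51 after rescaling (adjusted p = 0.231), with both knockout libraries above both controls on each scale. Isg15 itself stood at 2.23 and 3.90 RPKM in control and 3.56 and 7.86 RPKM in knockout. Knockout replicate 1 lay between the control libraries, which differed from each other more than in most members, and the log2 fold change was 0.68 with an SE of 0.34 (adjusted p = 0.301). Isg20, a 3′ to 5′ exonuclease of single-stranded RNA, was more abundant at 21.8 and 16.4 RPKM in control and 25.2 and 34.4 RPKM in knockout and had a log2 fold change of 0.61 with an SE of 0.23 (adjusted p = 0.118). None of these 3 genes was called, although their median fold, 0.68, was above that of all members.

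Ifi27 (ENSMUSG00000064215, chromosome 12, 103434211 to 103440239, plus strand, mm10), which encodes a small mitochondrial membrane protein, was the most abundant member and 1 of the 2 called. Its levels were 115 and 147 RPKM in control and 183 and 200.3 RPKM in knockout, a mean of 131 ± 22.7 RPKM in control and 192 ± 12.4 RPKM in knockout (SD, n = 2 per group). Both knockout libraries were above both controls, and the log2 fold change was 0.55 with an SE of 0.17 (adjusted p = 0.0326). After rescaling it was 0.18 (SE 0.24, adjusted p = 0.708) and the groups overlapped. Its neighbour Ifi27l2a, a related small protein encoded beside it on the minus strand of chromosome 12, had other values. It stood at 11.02 and 8.92 RPKM in control and 7.84 and 11.8 RPKM in knockout, and its log2 fold change was -0.040 with an SE of 0.29 (adjusted p = 0.929), the lowest of the tested members. On the rescaled scale both knockout libraries of Ifi27l2a lay below both controls, at -0.38. Ifi44 (chromosome 3, 151730922 to 151749960, minus strand, mm10), which encodes a cytoplasmic protein that limits growth, had the highest log2 fold change of the 32 tested members. It stood at 2.62 and 2.39 RPKM in control and 4.39 and 7.29 RPKM in knockout, a mean of 2.50 ± 0.1597 RPKM in control and 5.84 ± 2.05 RPKM in knockout and had a log2 fold change of 0.93 with an SE of 0.34 (adjusted p = 0.104). After rescaling it was 0.64 (SE 0.13, adjusted p = 0.147), and voom gave an adjusted p of 0.0802. Limma without a mean-variance trend called it on the deposited scale.

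Parp9, Dtx3l and Parp14 lie together on chromosome 16. PARP9 and the ubiquitin ligase DTX3L act as a pair, and PARP14 is an ADP-ribosyltransferase. Parp9 stood at 6.97 and 7.11 RPKM in control and 9.11 and 13.9 RPKM in knockout and had a log2 fold change of 0.61 with an SE of 0.30 (adjusted p = 0.285) and no overlap of the groups on either scale. Dtx3l, whose gene overlaps Parp9 on the opposite strand, stood at 3.75 and 3.78 RPKM in control and 3.53 and 5.64 RPKM in knockout. Its groups overlapped, with knockout replicate 1 the lowest library, and its log2 fold change was 0.20 with an SE of 0.34 (adjusted p = 0.684), turning to -0.099 after rescaling. Parp14 was low at 0.837 and 0.692 RPKM in control and 1.48 and 1.83 RPKM in knockout and had a log2 fold change of 0.59 with an SE of 0.27 (adjusted p = 0.259), and the fit understates the change of such low genes. The kit is not described as keeping strand, and reads from the overlap of Parp9 and Dtx3l cannot be told apart.

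Bst2 (ENSMUSG00000046718, chromosome 8, 71534255 to 71537456, minus strand, mm10) encodes tetherin, which holds budding virus at the cell surface, and was the other called member. It stood at 52.8 and 56.1 RPKM in control and 71.4 and 97.4 RPKM in knockout, a mean of 54.5 ± 2.28 RPKM in control and 84.4 ± 18.4 RPKM in knockout (SD, n = 2 per group). Both knockout libraries were above both control libraries, and the log2 fold change was 0.61 with an SE of 0.19 (adjusted p = 0.0324). After rescaling it was 0.24 (SE 0.15, adjusted p = 0.439), with the groups still apart. Rtp4, a chaperone that dampens the interferon response, stood at 12.4 and 17.1 RPKM in control and 18.4 and 26.1 RPKM in knockout and had a log2 fold change of 0.56 with an SE of 0.24 (adjusted p = 0.229). Trim30a, a mouse TRIM protein, stood at 10.2 and 10.7 RPKM in control and 13.9 and 19.95 RPKM in knockout and had a log2 fold change of 0.63 with an SE of 0.26 (adjusted p = 0.207); its family has close copies beside it. Both had knockout libraries above the controls in the deposited values without passing the test. Xaf1, a proapoptotic partner of XIAP, had 0.39 (adjusted p = 0.451). Samd9l, a translation-repressing restriction factor in which activating changes cause bone marrow failure, stood at 1.74 and 2.02 RPKM in control and 1.65 and 3.37 RPKM in knockout. Knockout replicate 1 was the lowest library for Samd9l, and its log2 fold change was 0.24 with an SE of 0.31 (adjusted p = 0.607), turning to -0.021 after rescaling.

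**Figure D2:**
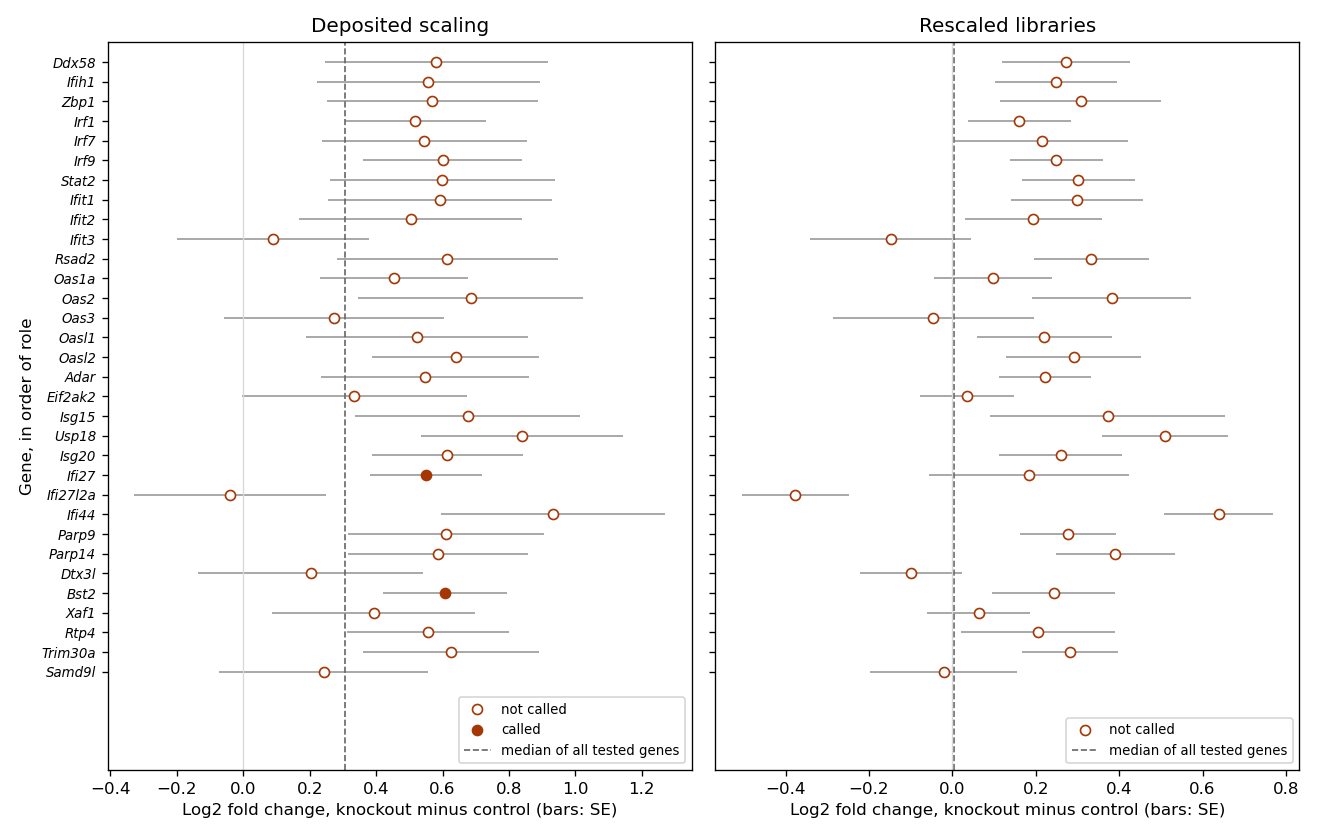
Log2 fold changes with SE bars of the 32 tested members in order of role, on the deposited (left) and rescaled (right) scales, with filled points for called genes and a dashed line at the median of all tested genes. Ifi27 and Bst2 are filled on the left and none on the right, and 27 of 32 points lie to the right of the dashed line on the left.

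The knockout libraries differed from each other. In the deposited values knockout replicate 2 was the highest of the 4 libraries for 32 of 32 members, beside 78.6% of all tested genes, and knockout replicate 1 was above both controls for 25, beside 58.9%. After rescaling, knockout replicate 2 was the highest library for 22 of 32 members, beside 33.6% of all genes, and knockout replicate 1 was above both controls for 19, beside 36.5%. The members' rescaled median stood 0.16 above the control mean in knockout replicate 1 and 0.30 above it in knockout replicate 2. Those of all genes were 0.00 and 0.012. Above the control mean were 25 members in the first knockout library and 30 in the second, beside 49.6% and 51.6% of all genes.

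The control libraries also differed in these genes. Control replicate 2 was above control replicate 1 for 21 of 32 members after rescaling, with a median difference of 0.14, beside 0.00 for all genes. The distance of knockout replicate 1 from the mean of the 2 controls was 0.16. The values 0.14 and 0.16 are unlike measures, since the first is a full difference between 2 libraries. Both knockout libraries were above both controls for 25 of 32 members in the deposited values, where 55.5% of all genes did the same, and for 17 of 32 after rescaling, where 27.4% did. The members are not independent of one another, since many are known to answer to the same transcription factors, so these counts describe the 4 libraries. Leaving out 1 library leaves its group with a single sample, which is assumed to vary like the other group. Leaving out any library other than knockout replicate 1 called 0 members, and without knockout replicate 1 limma called 30 of 32 higher, beside 54.3% of all genes.

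**Figure D3:**
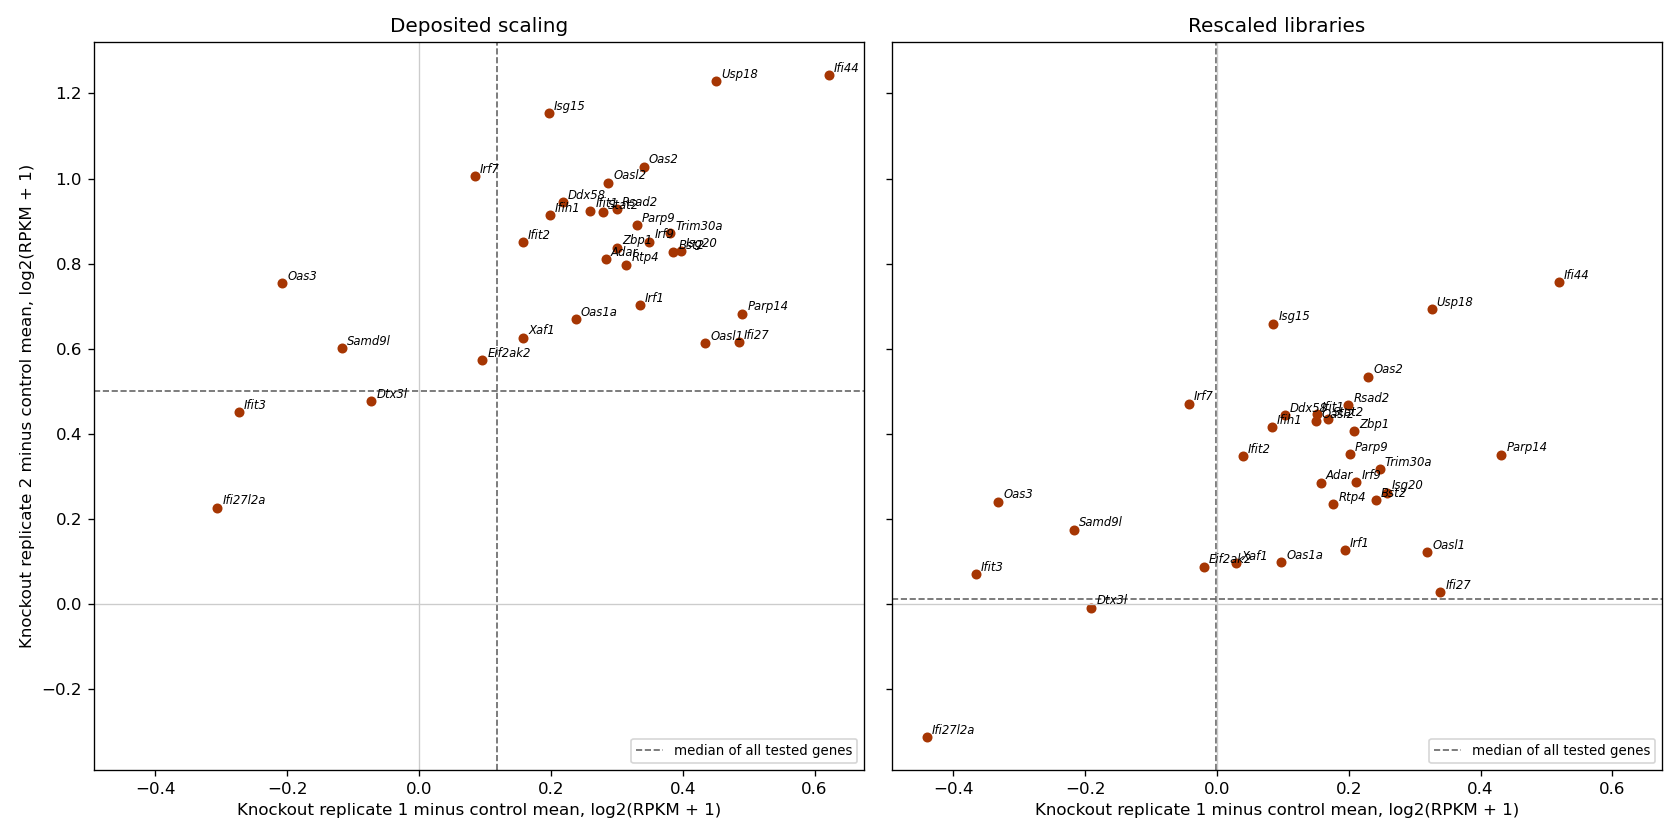
Each member's difference from the control mean in log2(RPKM + 1), knockout replicate 1 on the horizontal and knockout replicate 2 on the vertical axis, on the deposited (left) and rescaled (right) scales, with dashed lines at the medians of all tested genes. On the rescaled scale 25 of 32 members lie above 0 in knockout replicate 1 and 30 in knockout replicate 2, Ifi44 farthest to the upper right and Ifi27l2a at the lower left.

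The rest of the pathway was read from 6 further lists. None of the 21 interferon genes on the first of them had a row in the deposited table. Of 10 tested genes for receptors, kinases and STATs none was called, and their median log2 fold change, 0.32, was close to that of all genes. The type I receptor genes Ifnar1 and Ifnar2 had 0.36 (adjusted p = 0.459) and 0.29 (adjusted p = 0.477). The kinase genes Jak1, Tyk2 and Jak2 had 0.30, 0.36 and 0.25. Stat3, a transcription factor of many cytokines, had 0.34. Ifngr1, a chain of the interferon gamma receptor, was the abundant gene of this list at 332 and 258 RPKM in control and 231 and 195 RPKM in knockout, with lower values in both knockout libraries and a log2 fold change of -0.46 with an SE of 0.16 (adjusted p = 0.0962). Ifngr2 had 0.074 and Il10rb had 0.47. After rescaling the median of this list was -0.0084, beside 0.25 for the members.

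None of 19 tested genes of nucleic acid sensing was called, with a median of 0.32, and 0.026 after rescaling. Of 10 negative regulators 1 rose, Cish, an SH2-domain inhibitor of cytokine signalling, with 2.24 and 4.86 RPKM in control and 6.86 and 13.1 RPKM in knockout and a log2 fold change of 1.27 with an SE of 0.33 (adjusted p = 0.00502). The list's median was 0.23, and -0.061 after rescaling. Of 66 other interferon-stimulated genes 4 rose and 1 fell, with a median of 0.48, and 0.17 after rescaling. The nuclear interferon-inducible genes Ifi203 (0.86, adjusted p = 0.0449) and Mndal (0.83, adjusted p = 0.0388), the ISG15-conjugating enzyme gene Ube2l6 (0.63, adjusted p = 0.0294) and Shisa5 (0.75, adjusted p = 0.00197), which is also a p53 target, rose. Ifi203 and Mndal overlap on the same strand of chromosome 1, so their calls may rest on shared reads. Ifitm6, a transmembrane gene of myeloid cells, fell (-0.64, adjusted p = 0.0353). Of 11 interferon-inducible GTPase genes, which act on membranes of intracellular pathogens, 4 rose, Iigp1 (1.02, adjusted p = 0.0105), Gbp2 (0.94, adjusted p = 0.0298), Gbp3 (0.79, adjusted p = 0.0324) and Igtp (0.76, adjusted p = 0.0108), with a median of 0.66 over the list, and 0.33 after rescaling. Igtp overlaps Irgm2 of the same list. Over all 116 tested genes of these lists the median was 0.40, 9 were called higher and 1 lower, beside 3.33% and 0.86% of all genes, and both limma and voom after rescaling called 0 of them.

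**Figure D4:**
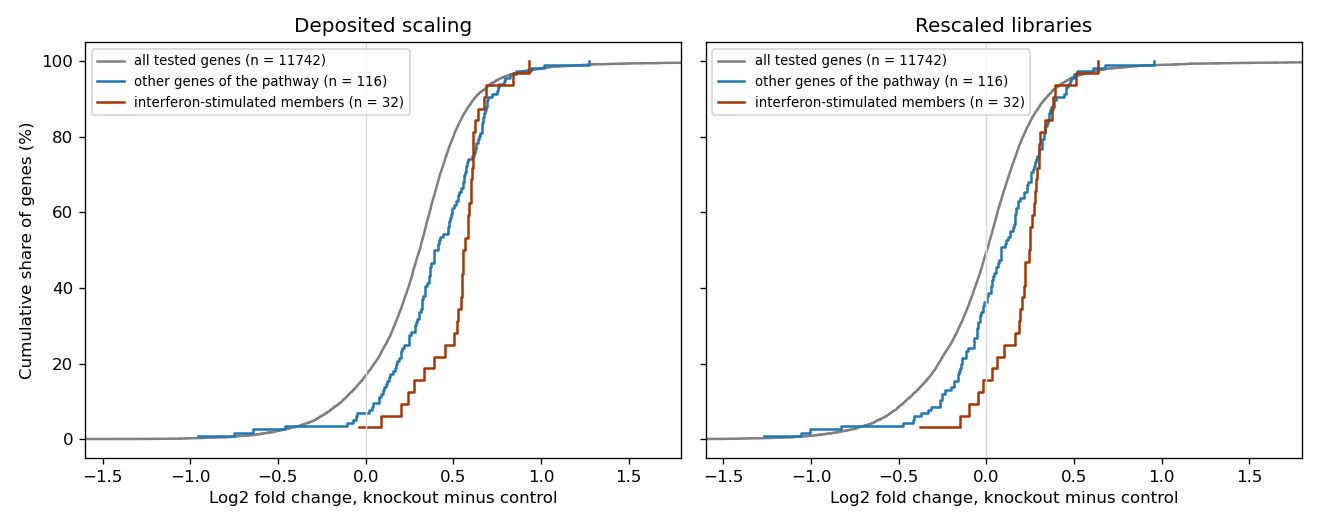
Cumulative share of genes by log2 fold change for all 11742 tested genes, the 116 other genes of the pathway and the 32 members, on the deposited (left) and rescaled (right) scales. The curve of the members lies to the right of that of all genes over most of its range, with medians of 0.56 against 0.31 on the left and 0.25 against 0.00 on the right.

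Markers of cells that make or answer interferon strongly were read beside the members. Of 7 markers of plasmacytoid dendritic cells, Irf8 and Tcf4 had values. The defining markers Siglech and Ccr9 had no row in the deposited table. Bst2 itself is also a marker of these cells. Irf8 stood at 7.94 and 1.94 RPKM in control and 2.73 and 7.35 RPKM in knockout, with overlapping groups. Its log2 fold change was 0.12. Tcf4 had 0.56, and 0.26 after rescaling, and was not called. Both knockout libraries of Tcf4 lay above both controls on each scale. The same held for 55.5% of all genes in the deposited values and 27.4% after rescaling. The 8 macrophage markers with values summed to 94.6 and 63.6 RPKM in control and 75.4 and 73.2 RPKM in knockout. These sums overlapped, and none of the 8 was called. In the deposited values the members' summed level was 377 and 418 RPKM in the control libraries and 512 and 689 RPKM in the knockout libraries. These sums were not rescaled, so differences in library scaling enter them. Ifi27 and Bst2, the most abundant members, weigh most in them. After rescaling, the members' median stood 0.16 above the control mean in knockout replicate 1 and 0.30 above it in knockout replicate 2.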

How the data were processed

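RNA was measured in 4 libraries, 2 per group, grouped by sample title and made with the Smart-Seq V4 Ultra Low Input kit, per the labels' protocols. The deposited table holds RPKM values, a unit identified from the values: value times the length of the longest GENCODE M21 transcript came out as a whole number of reads, within 0.1, for 99.4% of values. Per the submitters' processing notes the genome build was mm10; aligner and counter: not given in the sources used here. Values without reads are listed at 0.001, and every gene of the table reaches at least 1.0063 RPKM in some library. Symbols were found for 12384 gene IDs.

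Values were tested as log2(RPKM + 1) by limma 3.58.1 (R 4.3.3, trended variance) in the 11742 genes averaging 1 RPKM or more. Genotype was the sole term, leaving 2 residual degrees of freedom. Genes were called at a Benjamini-Hochberg adjusted p-value under 0.05 over all tested genes. In the main fit the prior degrees of freedom were infinite. Each gene's spread was thus replaced by the trend, and p-values of genes with distant replicates are too small. In the rescaled limma fit they were 3.70, so a gene's own spread counted as well. SEs ran from 0.16 to 0.34 in the main fit and from 0.10 to 3.02 in the rescaled fit. The 2 fits therefore differ in variance as well as in scaling. Rescaling used a trimmed mean of M-values (30% and 5% trimmed) over recovered reads, and voom used the same factors. Alternatives were rescaling, quantile normalization, voom, a replicate block, no variance trend, other filters, a pseudocount of 0.1 and leaving out each library. Promoters came from RefSeq (GRCm38.p6). Fits were tested on simulated data. Replicates were no repeat deposits (chi-square per degree of freedom 50.6 for control and 157 for knockout). The members and lists were chosen with earlier results of these data known. Named with full values were called members, the 2 most abundant and the lowest-fold tested member of each role, and members under the filter; others were added by name.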

Additional observations from a re-analysis of the deposited data

How the results depend on the processing

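The members' median above that of all tested genes kept its sign in every alternative run, between 0.16 and 0.33 beside 0.26 (without 1 library on the deposited scale, 0.17 to 0.33), while the calls did not hold. Counts of members called higher, other pathway genes called higher, all genes called higher and all genes called lower were 2, 9, 391 and 101 as reported. They were 0, 0, 0 and 0 with rescaled libraries, 0, 0, 0 and 0 with quantile normalization, 0, 0, 36 and 11 with voom, 1, 4, 373 and 52 without a mean-variance trend (the member called was Ifi44) and 2, 8, 235 and 93 with a mean of at least 5 RPKM. No filter and a pseudocount of 0.1 RPKM left the members called at 2. Leaving out control 1, control 2, knockout 1 or knockout 2, which leaves 1 sample in that group, the members called numbered 0, 0, 30 and 0, other pathway genes 0 to 80, all genes higher 27 to 6381 and all genes lower 5 to 526. No member was called lower in any setting. The members' median was 0.25 rescaled, 0.24 with quantile normalization, 0.27 with voom, and 0.29 to 0.83 without 1 library.

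Same-numbered libraries shared only a number: their deviations correlated at 0.0668 over genes. With the replicate number as a block, the 4 counts were 0, 1, 175 and 64.

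In an alternative added after the data were seen, the rescaled fit was run leaving out the same libraries in that order and called 0, 0, 2 and 0 members higher, 0, 0, 1 and 0 other pathway genes, 4, 2, 174 and 0 of all genes higher and 3, 3, 962 and 0 lower. The members' medians were 0.17, 0.32, 0.30 and 0.16, and their distances above all genes 0.17, 0.32, 0.29 and 0.16.

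Dtx3l turned to -0.099 rescaled, -0.15 with quantile normalization and -0.11 with voom, and ran from -0.072 to 0.48 without 1 library. Ifit3 turned to -0.15 rescaled, -0.24 with quantile normalization and -0.23 with voom, and ran from -0.27 to 0.45 without 1 library. Oas3 turned to -0.045 rescaled, -0.082 with quantile normalization and -0.026 with voom, and ran from -0.21 to 0.75 without 1 library. Samd9l turned to -0.021 rescaled, -0.096 with quantile normalization and -0.0029 with voom, and ran from -0.12 to 0.60 without 1 library. Eif2ak2 turned to -0.021 with quantile normalization, and Ifi27l2a ran from -0.31 to 0.23 without 1 library. The cause of these changes was not tested.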
